A study of Mus musculus with 10 samples.

Results

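The genes described here are 10 regulators of spermatogonial stem cells and of their differentiation: Zbtb16, Gfra1, Id4, Sall4, Kit, Stra8, Sohlh1, Sohlh2, Dmrt1 and Uchl1. They were taken by gene symbol, with no rule on their values, although earlier results of these data were known. All 10 were among the 15507 genes of the table. Their RNA was measured in germ cells of 5 wild type (WT) mice and 5 homozygous GRTH knock-in (KI) mice, all aged 45 days. In KI mice the knock-in allele is human GRTH bearing the R242H substitution. Mouse Ddx25, the gene it replaces, encodes a testicular RNA helicase, and the WT mice carry no targeted allele. Germ cells of each mouse were released from the seminiferous tubules with collagenase and trypsin, and 1 poly(A) library was prepared per mouse. The sample titles name testis, the methods of the study describe a germ cell fraction, and no sort for spermatogonia is described.

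Spermatogonia are the mitotic germ cells at the base of the seminiferous tubule. A small undifferentiated population renews itself under GDNF, a ligand that Sertoli cells secrete and that signals through RET with its co-receptor GFRA1, and retinoic acid drives the rest toward differentiation, when KIT appears on the cell surface and STRA8 is induced. The products of the studied genes act on either side of this step, while most RNA of an adult testis comes from spermatocytes and spermatids.

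The libraries held 12722086 to 16422347 reads on genes. The mouse Ddx25 gene followed the labels: its normalized count was 5198 to 11101 in WT, 146, 194 and 161 in KI libraries 1 to 3, and 2.88 and 1.84 in KI libraries 4 and 5, which stand for 3 and 2 reads. Libraries 1 to 3 and libraries 4 and 5 of both genotypes also parted on the second principal component (9.75% of the variance of the 500 most variable genes, against 74.1% for the first, which separated the genotypes). The labels name no batch, and the fold changes of the 10 genes are also given within each set of libraries. All 13 tested markers of elongating spermatids were down-regulated in KI and 0 of 8 Leydig cell markers fell (4 rose), so that markers of other cell types differed between the same libraries.

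Several of the 10 genes encode transcription factors or answer to retinoic acid, and the promoters of 3 of them are shown with the letters such factors are known to read. SOHLH1 and SOHLH2 are basic helix-loop-helix (bHLH) proteins, a family that reads the E-box CANNTG, and ID4 blocks bHLH proteins. Retinoic acid receptors read the hexamers AGGTCA and GGGTCA. RefSeq promoters (build GRCm38.p6, the 250 bases before the gene start, printed 5′ to 3′ on the strand of the gene) were found for 7 of the 10 genes by symbol: Sohlh1, Sohlh2, Uchl1, Kit, Stra8, Id4 and Gfra1. Capitals mark CANNTG and the receptor hexamers, searched on both strands. The Sohlh1 promoter lies at chr2:25847249-25847498 (minus strand), that of Stra8 at chr6:34920698-34920947 (plus strand) and that of Gfra1 at chr19:58455399-58455648 (minus strand).
Sohlh1: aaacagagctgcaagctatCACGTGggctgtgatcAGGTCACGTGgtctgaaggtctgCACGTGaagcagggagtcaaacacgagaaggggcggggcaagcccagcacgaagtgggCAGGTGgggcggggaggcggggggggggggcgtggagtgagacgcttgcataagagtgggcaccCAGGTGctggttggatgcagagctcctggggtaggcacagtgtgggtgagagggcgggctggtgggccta
Stra8: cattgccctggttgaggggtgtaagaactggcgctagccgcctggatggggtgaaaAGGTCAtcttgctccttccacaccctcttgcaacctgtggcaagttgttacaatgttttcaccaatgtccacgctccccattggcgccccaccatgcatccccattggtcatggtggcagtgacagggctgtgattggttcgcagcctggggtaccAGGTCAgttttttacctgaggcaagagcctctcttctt
Gfra1: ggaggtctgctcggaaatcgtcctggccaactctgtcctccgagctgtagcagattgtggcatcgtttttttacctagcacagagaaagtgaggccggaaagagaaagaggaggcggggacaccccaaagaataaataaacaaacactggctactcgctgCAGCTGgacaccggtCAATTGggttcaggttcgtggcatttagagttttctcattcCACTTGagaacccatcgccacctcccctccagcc

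Sohlh1 held 5 E-boxes in this window. Those 231, 211 and 192 bases upstream of the start read CACGTG and those 134 and 70 bases upstream read CAGGTG. The hexamer AGGTCA 215 bases upstream shares its last bases with the CACGTG at 211. Stra8 held 0 E-boxes and 2 receptor hexamers, both AGGTCA, at 194 and 38 bases upstream. Gfra1 held 3 E-boxes, CAGCTG at 90, CAATTG at 75 and CACTTG at 34 bases upstream, and no receptor hexamer. Sohlh2 held 1 E-box, CAGATG at 241 bases upstream, while the windows of Kit, Uchl1 and Id4 held neither motif. Of 32851 promoter windows of the same length, 66.2% held CANNTG, 6.02% held CACGTG, 13.0% held CAGCTG and 23.8% held a receptor hexamer, so that an E-box by itself is common. A match of letters is a description and not a measured binding site.

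The main question was whether these regulators differ between germ cells of KI and WT mice. None of the 10 was differentially expressed (limma on log2(normalized count + 1), fold change of 1.5 or more at an adjusted p under 0.05), against 14.4% of the 15389 genes tested, and edgeR and DESeq2 also called 0 of 10. All 10 genes passed the filter on low counts. At an adjusted p under 0.05 without the fold threshold, 1 gene passed, Gfra1, against 22.9% of all genes, and 2 passed at an unadjusted p under 0.05, Gfra1 and Zbtb16. The libraries of WT and KI overlapped for all 10 genes, whereas they did not overlap for 17.7% of all genes tested. The fitted mean was higher in KI for 6 genes and lower for 4. The median log2 fold change was 0.02 for the 10 genes and 0.03 for all genes tested, and the median absolute log2 fold change 0.19 and 0.21. In these bulk samples, fewer cells of a type and less RNA per cell cannot be told apart.

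**Figure D1:**
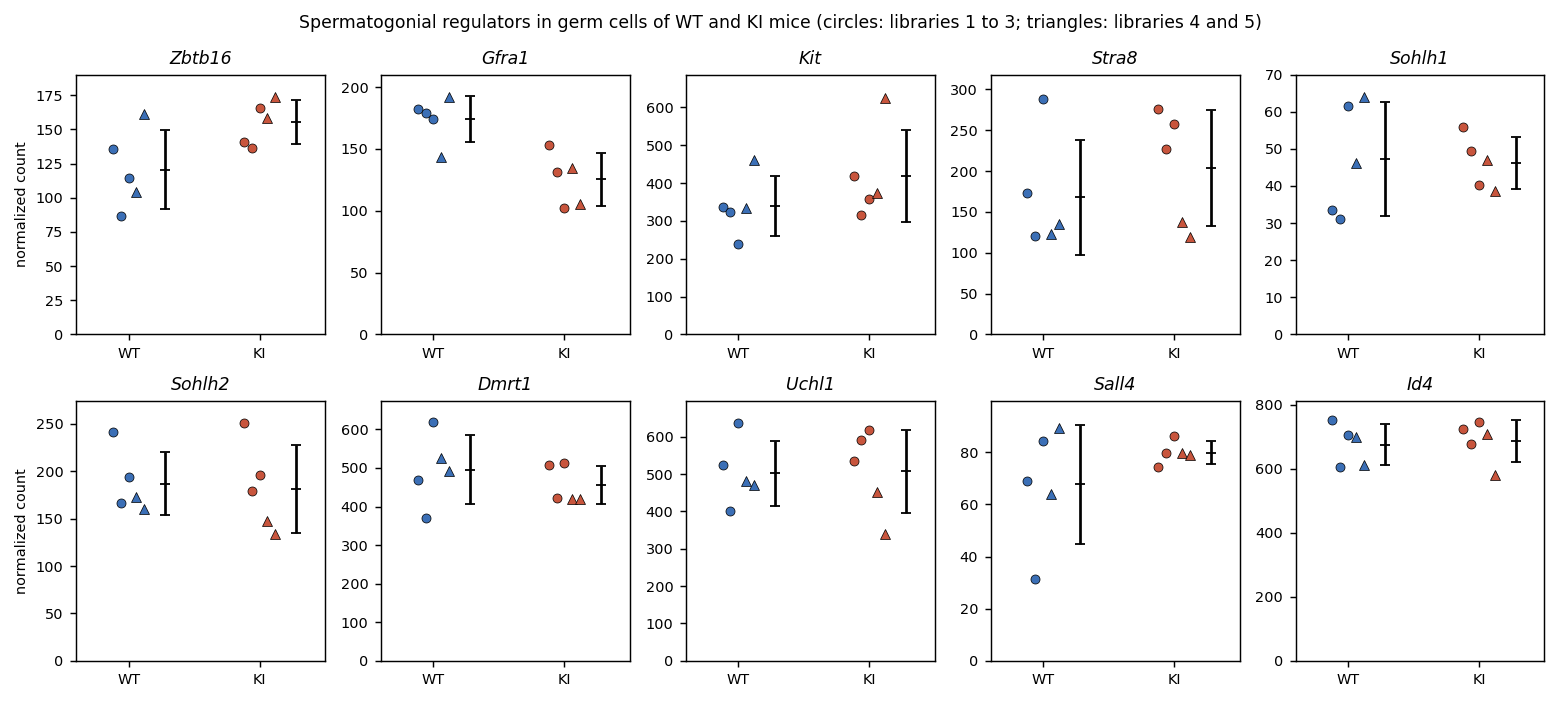
Normalized count of each of the 10 genes in each library (linear axes from 0), in WT (blue) and KI (red); circles are libraries 1 to 3, triangles libraries 4 and 5, and the bar beside each genotype is the mean ± SD (n = 5). The genotypes overlap in every panel; Gfra1 comes nearest to parting, with 4 of 5 KI libraries below the lowest WT library.

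The first group holds regulators of the undifferentiated state. Gfra1 (chr19:58235581-58455398, minus strand) encodes the co-receptor through which GDNF reaches RET. Its normalized count was 182, 179, 174, 143 and 192 in WT libraries 1 to 5 and 153, 131, 102, 135 and 106 in KI libraries 1 to 5. Only KI library 1 reached the WT range, and there it stood above no more than WT library 4. Gfra1 fell by 0.48 on the log2 scale (SE 0.14, 95% interval −0.78 to −0.19), 0.717 of the WT level, with an adjusted p of 0.0202 (limma). This change was smaller than the fold threshold, although the interval reaches past it. The log2 fold change was −0.49 in libraries 1 to 3 alone (adjusted p = 0.0242, limma) and −0.47 in libraries 4 and 5 alone (adjusted p = 0.229), so that its size was alike in both sets. It passed the adjusted p threshold with edgeR (0.0203) and DESeq2 (0.00932), and did not without KI library 3 (adjusted p = 0.0585), with upper quartile scaling (0.0515) or with scaling to library totals (0.167). Under library totals the log2 fold change of Gfra1 was −0.25, while the median of all genes moved to 0.25.

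Zbtb16 (chr9:48651797-48836225, minus strand) encodes PLZF, a zinc finger repressor needed for maintenance of the stem cell pool. The 5 libraries of WT had normalized counts of 136, 86.7, 115, 104 and 161, and those of KI 141, 136, 166, 159 and 174. KI libraries 3 and 5 lay above every WT library, and the other 3 KI libraries lay within the WT range. The log2 fold change was 0.39 (SE 0.16, 95% interval 0.05 to 0.73), and the adjusted p of 0.0955 (limma) missed the threshold. With the library number as a block the adjusted p was 0.0332 (limma), where 32% of all genes passed, and 3 of the 10 genes passed, Zbtb16, Gfra1 and Kit. Without WT library 5 it was 0.0281, and the range over the libraries left out in turn was 0.0281 to 0.231. The 75 to 189 reads behind these values make Zbtb16 one of the more thinly covered genes here.

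Id4 (chr13:48261116-48266028, plus strand) encodes an inhibitor of bHLH proteins that, among spermatogonia, marks the cells with most stem cell activity. Which cells of the preparation gave its counts was not tested. Normalized counts were 752, 606, 705, 698 and 612 in WT and 725, 676, 745, 707 and 579 in KI. The 2 genotypes covered nearly the same range, with a coefficient of variation of 9.43% in WT and 9.52% in KI. The log2 fold change was 0.02 (SE 0.10) with a 95% interval of −0.19 to 0.24, which leaves room for a fold between 0.878 and 1.18 (adjusted p = 0.893, limma).

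Sall4 (chr2:168748332-168767201, minus strand) encodes a zinc finger factor shared with pluripotent cells. Normalized counts were 69.0, 31.2, 84.5, 64.2 and 89.4 in WT and 74.3, 80.0, 86.5, 79.8 and 79.1 in KI. WT library 2 held 27 reads and lay lowest, whereas the KI libraries kept within a coefficient of variation of 5.41%, against 33.9% in WT. The log2 fold change of 0.32 (SE 0.23, 95% interval −0.17 to 0.82, adjusted p = 0.361, limma) rested on WT library 2, and without it was 0.07.

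The second group is known for the step into differentiation. Kit (chr5:75574987-75656721, plus strand) encodes the receptor of stem cell factor and marks differentiating spermatogonia. Its normalized count was 337, 324, 239, 333 and 460 in WT and 419, 315, 357, 375 and 625 in KI. Library 5 was the highest of its genotype in both, and only KI library 5 lay above the WT range. The log2 fold change was 0.29 (SE 0.18, 95% interval −0.10 to 0.68, adjusted p = 0.284, limma), with an adjusted p of 0.0377 with the library number as a block. Scaling to library totals gave 0.52 (adjusted p = 0.0416, limma), against the shift of 0.25 in all genes. Leydig cells also make KIT, and their 8 markers summed to 11042 to 19764 in WT and 15952 to 27283 in KI, none of them at 0 in any library. In KI 4 of the markers rose, Insl3, Cyp17a1, Hsd3b6 and Cyp11a1 (log2 fold change 0.82, 0.70, 0.69 and 0.69), which act in hormone signalling and steroid synthesis, and their part in the values of Kit was not tested. The count of Leydig markers that rose was 1 without WT library 1, WT library 3 or KI library 5, 2 without WT library 4 and 8 without WT library 2, and it was 6 with the block. A shorter transcript of Kit is made in spermatids, and the counts per gene do not separate it from the full-length receptor.

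Stra8 (chr6:34920948-34939344, plus strand) encodes the retinoic acid-induced factor that starts meiosis, and its promoter holds the hexamers printed above. Its normalized count was 173, 120, 289, 123 and 135 in WT and 276, 227, 257, 138 and 120 in KI. The 4 libraries numbered 4 and 5 lay between 120 and 138 in both genotypes, and 5 of the 6 libraries numbered 1 to 3 lay above them. Between genotypes the log2 fold change was 0.28 (SE 0.27, 95% interval −0.29 to 0.85, adjusted p = 0.502, limma). It was 0.47 in libraries 1 to 3 alone (adjusted p = 0.111, limma) and −0.01 in libraries 4 and 5 alone (adjusted p = 0.990, limma). The difference of these effects did not pass the test (interaction, adjusted p = 0.532, limma).

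Sohlh1 (chr2:25842997-25847248, minus strand) and Sohlh2 (chr3:55182044-55209957, plus strand) encode the bHLH partners that repress stem cell genes and switch on Kit. The normalized count of Sohlh1 was 33.5, 31.2, 61.6, 46.1 and 64.0 in WT and 55.7, 49.5, 40.2, 47.1 and 38.6 in KI. All KI libraries fell inside the WT range, and the log2 fold change was 0.02 (SE 0.22, 95% interval −0.46 to 0.49, adjusted p = 0.971, limma). The interval spans a fold of 0.729 to 1.40, and 27 to 68 reads per library stood behind these values. For Sohlh2 the normalized count was 241.6, 166, 194, 173 and 160 in WT and 251, 179, 196, 147 and 133 in KI. Library 1 was the highest in both genotypes and library 5 the lowest, with a log2 fold change of −0.06 (SE 0.17, 95% interval −0.43 to 0.30, adjusted p = 0.833, limma).

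The last genes are expressed more widely among spermatogonia. Dmrt1 (chr19:25505706-25604328, plus strand) encodes a DM-domain factor that restrains the response to retinoic acid and entry into meiosis. For Dmrt1 the normalized count was 470, 371, 620, 526 and 492 in WT and 508, 423, 512, 420 and 419 in KI, all KI libraries lying inside the WT range. The log2 fold change was −0.11 (SE 0.13, 95% interval −0.38 to 0.17, adjusted p = 0.611, limma). Sertoli cells also make DMRT1, and their 13 markers, none at 0 in any library, summed to 8099 to 13032 in WT and 8132 to 14122 in KI. Within KI the sum was 12392 to 14122 in libraries 1 to 3 and 8132 and 9063 in libraries 4 and 5, and the part of these cells in the values of Dmrt1 was not tested.

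Uchl1 (chr5:66676121-66687234, plus strand) encodes the ubiquitin hydrolase PGP9.5, a marker of spermatogonia. Its normalized count was 523, 401, 638, 480 and 470 in WT and 534, 590, 617, 453 and 340 in KI. KI library 5 alone lay below the WT range. The fitted means were nearly equal, with a log2 fold change of −0.00 (SE 0.16) and a 95% interval of −0.34 to 0.34 (adjusted p = 0.995, limma). In GENCODE, genes on the opposite strand share exonic bases with Gfra1 (416 bases), Uchl1 (295), Sall4 (526) and Id4 (82 and 171). The strand setting of the counting is not given in the sources used here, so that reads from those genes cannot be told apart.

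**Figure D2:**
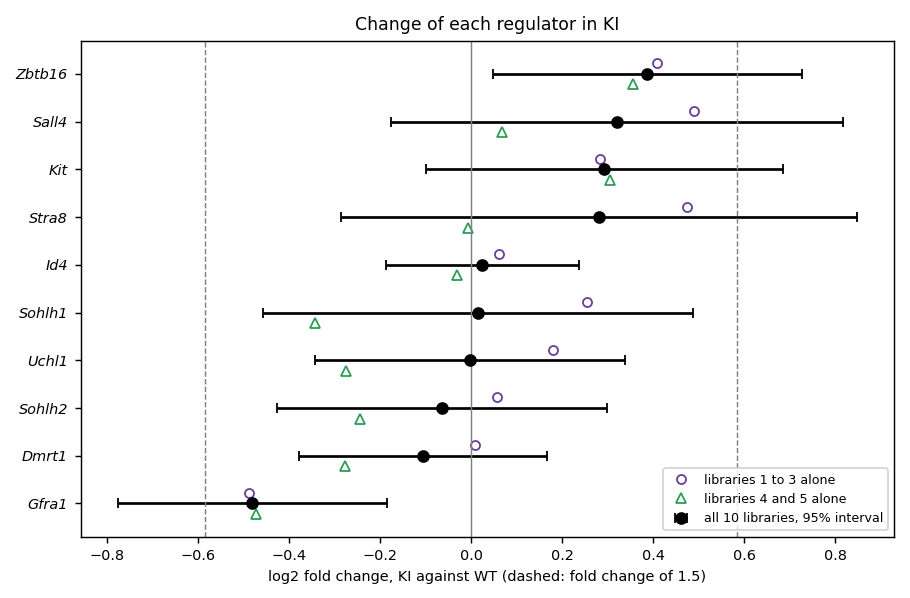
Log2 fold change of each gene in KI against WT (x axis) over all 10 libraries (black points, bars 95% intervals), in libraries 1 to 3 alone (purple circles) and in libraries 4 and 5 alone (green triangles); dashed lines mark a fold change of 1.5. The intervals of Gfra1 and Zbtb16 lie to one side of 0, and Gfra1, Zbtb16 and Kit have nearly the same value in both sets of libraries.

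Libraries 4 and 5 were then compared with libraries 1 to 3 in a fit that kept genotype as a term, a comparison added after the data were seen. The labels do not name these sets, which were read from the same values (Ddx25 and the second principal component). The p-values of this comparison therefore describe genes that follow that split and test no independent grouping. Here 2 of the 10 genes passed an adjusted p under 0.05, Stra8 and Sohlh2, against 21.5% of all genes tested, and 4 passed an unadjusted p under 0.05. Stra8 was lower in libraries 4 and 5 by a log2 difference of −0.73 (SE 0.18, 95% interval −1.12 to −0.35, adjusted p = 0.00944, limma), and the adjusted p was 0.00059 to 0.0322 with each library left out. Sohlh2 was lower by −0.41 (SE 0.13, adjusted p = 0.0366, limma), with 0.0135 to 0.107 when each library was left out. For Uchl1 the log2 difference was −0.33 (adjusted p = 0.0743, limma) and for Kit it was 0.41, in the opposite direction (adjusted p = 0.0509 with limma, 0.0366 with edgeR). Gfra1, at −0.10, had an adjusted p of 0.663 (limma). The fitted mean was higher in KI for 9 of the 10 genes in libraries 1 to 3 alone and for 3 in libraries 4 and 5 alone, Zbtb16, Kit and Sall4. In libraries 1 to 3 and then in libraries 4 and 5, the log2 fold change was 0.41 and 0.36 for Zbtb16, 0.28 and 0.31 for Kit and 0.49 and 0.07 for Sall4. It was 0.25 and −0.34 for Sohlh1, 0.06 and −0.24 for Sohlh2, 0.01 and −0.28 for Dmrt1, 0.18 and −0.27 for Uchl1 and 0.06 and −0.03 for Id4. Among these 8 genes no value passed an adjusted p under 0.05 in either set (limma), with a lowest of 0.0816 for Zbtb16 in libraries 1 to 3. The test of that difference passed for 0 of 10 genes (interaction in limma, 0 at an unadjusted p under 0.05), against 0.247% of all genes. The lowest unadjusted p was that of Uchl1, 0.0668, with an adjusted p of 0.349 (limma).

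Ratios of genes within a library do not depend on how libraries are scaled, and 6 pairs among Zbtb16, Gfra1, Kit and Stra8 were formed, with no test. The normalized count of Zbtb16 was 0.484 to 0.838 of that of Gfra1 in WT and 0.919 to 1.64 times it in KI. The genotypes therefore did not overlap for this pair, and the mean log2 ratio was −0.56 ± 0.30 (SD, n = 5) in WT and 0.32 ± 0.38 in KI. The ratio of Gfra1 to Kit was 0.417 to 0.727 in WT and 0.169 to 0.416 in KI, and WT library 5 and KI library 2 almost touched. The other 4 pairs overlapped. Among all pairs of tested genes the genotypes did not overlap for 19.6%, so that 2 of 6 pairs is a description of these genes only.

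**Figure D3:**
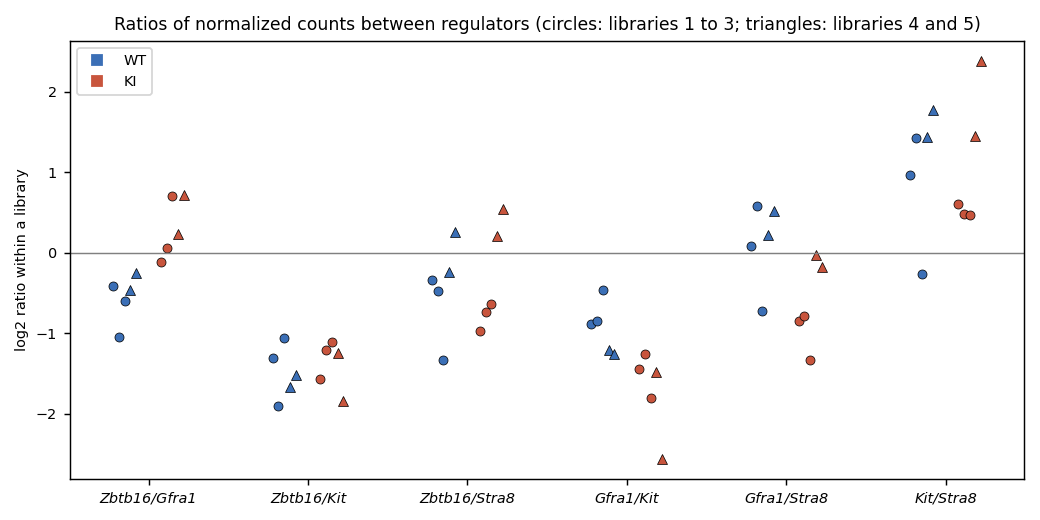
Log2 ratio of normalized counts within each library for the 6 pairs (y axis), in WT (blue) and KI (red); circles are libraries 1 to 3 and triangles libraries 4 and 5. For Zbtb16/Gfra1 all 5 KI libraries lie above all WT libraries, for Gfra1/Kit all 5 lie below, and the pairs with Stra8 spread by library number.

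Levels of different genes were compared per kb of the union of exons. In WT the order was Uchl1 (308 ± 53.5 normalized counts per kb, SD, n = 5), Dmrt1 (191 ± 34.7), Id4 (175 ± 16.5), Stra8 (93.1 ± 39.2), Sohlh2 (79.1 ± 14.0), Kit (38.0 ± 8.86), Sohlh1 (36.7 ± 11.9), Gfra1 (31.8 ± 3.35), Zbtb16 (22.8 ± 5.45) and Sall4 (12.2 ± 4.14). Neighbours whose WT libraries did not overlap were Uchl1 and Dmrt1, Sohlh2 and Kit, and Zbtb16 and Sall4; the other 6 neighbouring pairs overlapped. The median of tested genes with a known length was 63.0 per kb, and Uchl1 stood at the percentile 79.9 and Sall4 at 19.7. In KI the level of Gfra1 was 22.9 ± 3.90 and that of Zbtb16 29.4 ± 3.04, so that the order of their means was turned, although their KI libraries overlapped. The means of Dmrt1 (176 ± 18.8) and Id4 (178 ± 17.0) were also in the other order in KI, within their spread. With the longest transcript as length, 8 of 10 genes kept their place in WT, Gfra1 and Sohlh1 trading theirs, and Kit stood at 64.6 per kb.

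**Figure D4:**
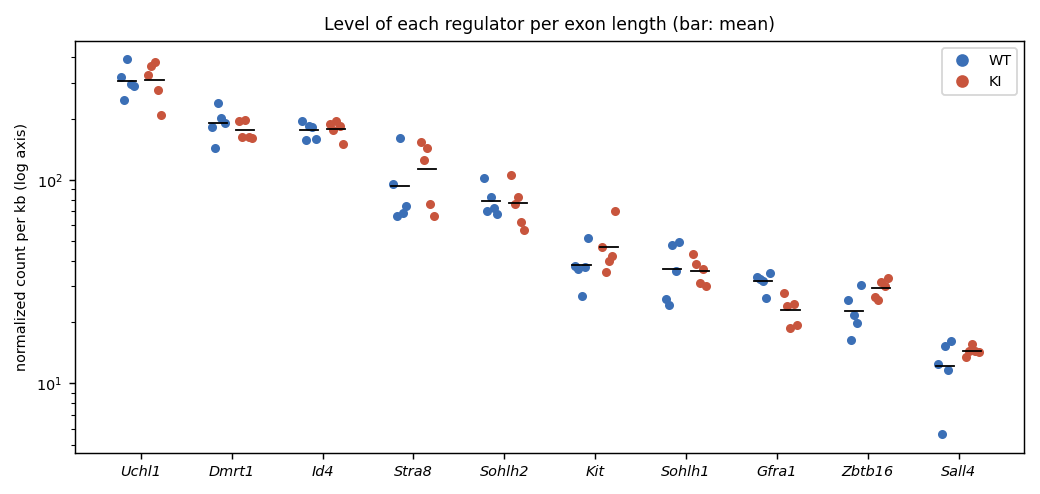
Normalized count per kb of exon (log axis) of each gene in each library of WT (blue) and KI (red), ordered by the WT mean; short bars are the means. Levels run from 308 per kb for Uchl1 to 12.2 per kb for Sall4 in WT, and in KI the means of Gfra1 and Zbtb16, and of Dmrt1 and Id4, trade places with overlapping libraries.

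Other genes of the same pathways were counted by lists, each with its median log2 fold change beside the 0.03 of all genes tested. At the same thresholds 14.4% of all genes tested were called (944 up and 1265 down). Of 19 tested genes of undifferentiated spermatogonia, 3 rose and 1 fell (median 0.00). Lin28a, an RNA-binding repressor of let-7 maturation, rose by a log2 fold change of 0.65 (adjusted p = 0.00791, limma), and the surface tetraspanin Cd9 by 0.81 (adjusted p = 0.00234, limma). In libraries 4 and 5 alone the values were 0.38 for Lin28a (adjusted p = 0.380, limma) and 0.50 for Cd9 (adjusted p = 0.273, limma). Cd9 was called with each of the 10 libraries left out, and Lin28a was not in 2 of those fits. A further tetraspanin, Tspan8, rose by 0.65 with an adjusted p of 0.0441 (limma), which was 0.0509 with edgeR, 0.223 in libraries 1 to 3 alone and 0.0950 in libraries 4 and 5 alone, and it was not called when any of 8 of the 10 libraries was left out. Lhx1, a homeobox gene, fell by 0.91 (adjusted p = 0.0455, limma), from 34.95 ± 13.7 to 18.0 ± 6.67 normalized counts (SD, n = 5). It was not called when any of 7 of the 10 libraries was left out, nor with library totals (adjusted p = 0.0934, limma). Ret, the signalling partner of Gfra1, had 36.8 ± 7.68 normalized counts in WT and 33.1 ± 6.21 in KI (log2 fold change −0.14, adjusted p = 0.677, limma). Nanos2, Nanos3, Neurog3 and Gdnf were not analysed here.

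Of 15 tested genes of differentiating spermatogonia, 1 rose, Ccnd2, a D-type cyclin, by a log2 fold change of 1.39 (adjusted p = 9.97e-06, limma), with 52.0 to 78.5 normalized counts in WT and 139 to 215 in KI (median of the list 0.04). Of 17 tested genes of entry into meiosis, 0 were called with limma, edgeR or DESeq2 (median −0.01). The gene with the lowest p, Spo11, which encodes the enzyme that cuts DNA for recombination, was also the only one with an unadjusted p under 0.05, and its log2 fold change of −0.41 passed the adjusted p (0.0232, limma) and not the fold threshold. The list had 0 genes called in libraries 1 to 3 alone and 2 lower in libraries 4 and 5 alone. Gm4969, the older symbol of Meiosin, whose product partners STRA8, had a log2 fold change of 0.27 (adjusted p = 0.401, limma), and Rec8, a meiotic cohesin and STRA8 target, one of −0.01 (adjusted p = 0.974).

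In the retinoic acid pathway, 3 of 18 tested genes rose and 1 fell (median 0.16). Among those that rose, Cyp26b1, which degrades retinoic acid, had a log2 fold change of 1.18 and Aldh1a3, which makes it, one of 0.99 (adjusted p 9.36e-05 and 0.00172, limma). The groups did not overlap for either gene. Rxrg, a retinoid X receptor, was called lower, from 11.03 to 25.4 normalized counts in WT to 0 to 5.77 in KI. Stra8, the target of this pathway among the 10 genes, overlapped between genotypes as given above. Without KI library 4, 6 genes of the list rose.

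Of 23 tested niche ligands and receptors, 4 rose and 0 fell (median 0.18), namely Igf1 (1.29), Csf1 (0.87), Csf1r (0.78) and Cxcl12 (0.76, all log2 fold changes). These encode a growth factor, a ligand of macrophages with its receptor, and a chemokine. Kitl, which encodes the ligand of KIT, had 227 ± 39.1 normalized counts in WT and 305 ± 66.5 in KI (SD, n = 5; log2 fold change 0.41, adjusted p = 0.0831, limma). With the library number as a block its adjusted p was 0.0169 (limma), and the called genes of the niche list then numbered 6, all higher. Library totals (0.0126), upper quartile scaling (0.0380) and libraries 1 to 3 alone (0.0143) also put the adjusted p of Kitl under 0.05, whereas libraries 4 and 5 alone gave 0.501. Among 23 partners and relatives of the 10 genes, 5 rose and 1 fell (median 0.15). Pdgfra, a receptor kinase related to KIT, rose by 1.22, Id3, a relative of Id4, by 1.10 and Zbtb20, a relative of Zbtb16, by 1.05, and Dmrt3, a relative of Dmrt1, fell by 0.72 (log2 fold changes, adjusted p 0.000194, 0.00907, 0.00132 and 0.0223, limma). Dmrt3 was not called without WT library 4, WT library 5 or KI library 3. Tcf3, which encodes the bHLH partner that ID4 binds, had a log2 fold change of 0.19 (adjusted p = 0.391, limma).

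Markers of the other cells in such preparations moved as follows. Of 9 macrophage markers 6 rose (sum 788 to 1032 in WT and 1190 to 1559 in KI), led among the better covered by C1qc, C1qa, Csf1r and Lyz2 (0.96, 0.90, 0.78 and 0.69). Of 6 endothelial markers 2 rose, Vwf and Cdh5 (1.05 and 0.66), with a sum of 271 to 382 in WT and 434 to 828 in KI. Of 6 tested peritubular myoid markers 2 rose, Des and Acta2 (1.04 and 0.78), with a list median of 0.09. Des had a mean of 11.9 normalized counts in WT and 24.2 in KI, and an adjusted p of 0.0568 with edgeR. The others were not called, with Mylk at 0.25, Myh11 at −0.30, Tagln at −0.23 and Tpm2 at −0.07. Only 1 endothelial marker rose without KI library 5, and only 1 myoid marker when any single one of WT libraries 1 to 3 or KI libraries 1, 3, 4 and 5 was left out. Of 13 Sertoli markers 0 were called with limma, edgeR or DESeq2. Gata4, a gonadal transcription factor with the lowest p of that list, was also the only marker with an unadjusted p under 0.05, and its log2 fold change of 0.42 passed the adjusted p (0.0408, limma) and not the fold threshold. Sertoli markers called were 3 higher in libraries 1 to 3 alone (median 0.35), 1 lower in libraries 4 and 5 alone (median −0.28) and 2 higher with library totals. Of the Leydig markers 3 rose in libraries 1 to 3 alone and 1 in libraries 4 and 5 alone, and of the macrophage markers 3 and 2. None of these markers was at 0 in any library. The part of these cells in the changes of the spermatogonial lists (Ccnd2, Cd9 and Tspan8 among them) and of retinoic acid, niche and related genes was not tested. Of 5 mast cell markers, 0 were analysed here.

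Markers of elongating spermatids gave the clearest contrast to the 10 regulators, where 14.4% of all genes tested were called. Of 11 pachytene spermatocyte markers 1 fell, Pgk2 (log2 fold change −1.07), with 3 lower in libraries 1 to 3 alone and 1 in libraries 4 and 5 alone, and of 14 round spermatid markers 2 fell, Tssk2 (−1.08) and Cst13 (−0.66). All 13 elongating spermatid markers fell, with a median log2 fold change of −2.27, including the protamine genes Prm2 (−3.30) and Prm1 (−2.82), the kinase Tssk6 (−3.02), the mitochondrial capsule gene Smcp (−2.74) and the tail fibre gene Odf1 (−2.55). The 13 genes were called in each fit with 1 library left out and summed to 326282 to 542530 in WT and 73803 to 109430 in KI. In libraries 4 and 5 alone, 7 round spermatid markers fell and 1 rose, and 4 fell without KI library 3 and 1 without KI library 5. With scaling to library totals the elongating list again had 13 of 13 lower (median −2.04). That scaling called 2145 of all genes tested up and 789 down (73.1% up), and the median of all genes was 0.25. Under it, called genes of undifferentiated spermatogonia numbered 5 up and 0 down, and those of the retinoic acid pathway 7 up and 1 down. Those of the niche numbered 9 up, and those of partners and relatives 10 up and 0 down.

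**Figure D5:**
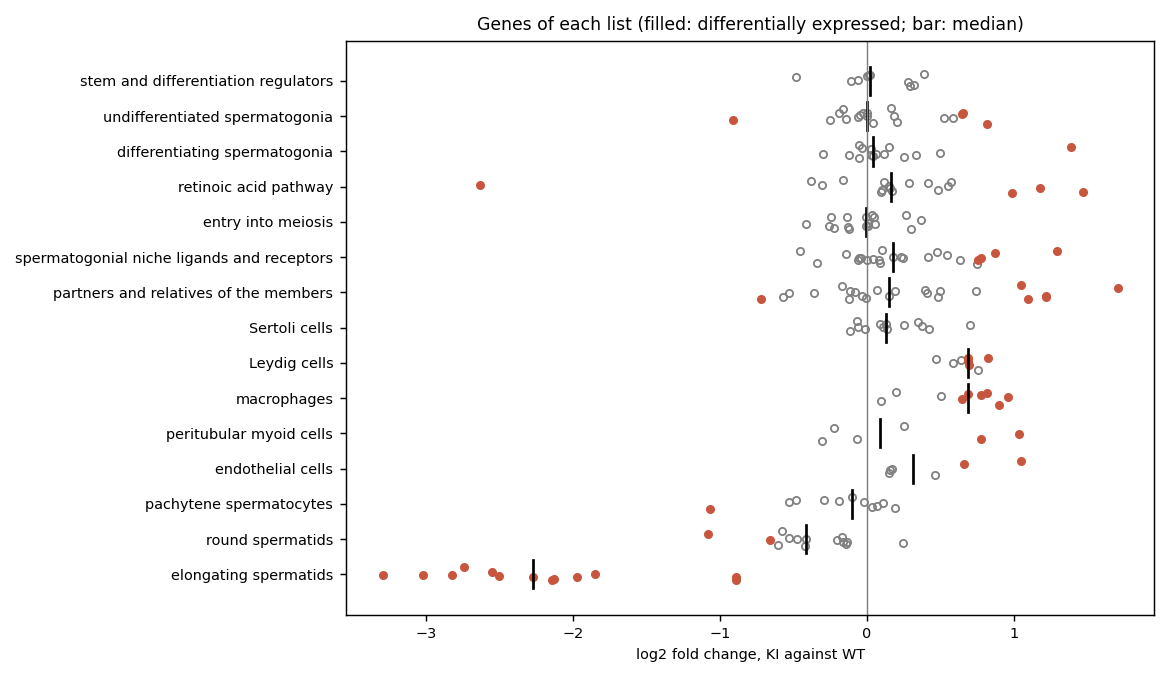
Log2 fold change in KI against WT (x axis) of each tested gene of each list; filled red points are differentially expressed, open points are not, and black bars are list medians. The 10 regulators lie between −0.48 and 0.39 with none called, while all 13 elongating spermatid markers lie below 0 with a median of −2.27.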

How the data were processed

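RNA-seq libraries of germ cells from 5 WT and 5 KI mice were used, grouped by the genotype in their labels. The authors aligned reads to mm10 with STAR, counted them per RefSeq gene in Partek, and deposited read counts divided by DESeq2 size factors, a normalized signal. Division of the deposited values by what 1 read is worth gave whole reads for 100% of those under 5000 reads (tolerance 0.02), and DESeq2 size factors of the recovered reads differed by at most 4.37e-06 percent. Columns assigned to no library numbered 0.

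limma (3.58.1, R 4.3.3) with a variance trend was fitted to log2(value + 1) of the 15389 genes of 15507 that passed filterByExpr of edgeR (4.0.16). Benjamini-Hochberg adjustment ran over all of them, and 95% intervals and SE are those of limma. A fold change on this scale understates that of low genes. A count test was run on the recovered reads as an alternative (edgeR quasi-likelihood, DESeq2 1.42.0). It called 2243 and 2309 genes, against 2209 with limma. Other alternatives were the scaling, pseudocount, filter, threshold, replicate block, sets of libraries and each library left out. P-values measure the spread between libraries, each of which came from 1 mouse. A value of 0 leaves up to 3 reads possible.

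Libraries of the same number correlated after genotype means were removed (r = 0.306, 0.105, 0.28, 0.216 and 0.462 for numbers 1 to 5). Libraries of different numbers were not correlated, so these values do not show that the samples were paired. The main fit was unpaired, and the numbers served as a block only in an alternative fit. No library duplicated another (chi-square per degree of freedom 2.68 to 46.7 between replicates). The scripts were tested on simulated data.

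The 10 genes and the 15 companion lists were chosen with earlier results of these data known. All 10 genes are named, with Ddx25. In each companion list the called genes are named, or, where over 5 were called, the 5 with the largest change among those whose higher group had a mean normalized count of 50 or more, and direct partners of the 10 genes (Ret, Gdnf, Kitl, Nanos2, Nanos3, Neurog3, Gm4969, Rec8 and Tcf3) are named where present. A gene of the retinoic acid list is counted and not reported here by name. Coordinates are those of the table in mm10, exon lengths are from GENCODE on the same build, and promoters are RefSeq windows of 250 bases before the start.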

Additional observations from a re-analysis of the deposited data

How the results depend on the processing

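Scaling moved the split of all called genes most. Of 2209 genes, 42.7% rose (944 up, 1265 down), against 73.1% with library totals (2145 up, 789 down) and 55.8% with upper quartile scaling, where the median log2 fold change of all genes was 0.25 and 0.12. Rising genes numbered 549 with a mean of at least 50, 472 in libraries 4 and 5 alone and 605 at an adjusted p under 0.01, and 3529 genes (1485 up, 2044 down) passed the adjusted p alone. Of the 10 regulators, library totals called 1 (Zbtb16, log2 fold change 0.61, adjusted p 0.0119, limma) and the adjusted p alone 1 (Gfra1). Upper quartile scaling put Zbtb16 at an adjusted p of 0.0437 (limma). The replicate block, which treats libraries of equal number as pairs although no pairing is given, called 2410 genes. It changed the side of the adjusted p threshold of Zbtb16 and Kit and of no other regulator. The comparison of libraries 4 and 5 with 1 to 3 called 1 regulator with library totals and 1 to 4 with each library left out (1 without WT library 5, KI library 1, KI library 3 or KI library 5; 4 without WT library 2 or WT library 4), the cause of which was not tested.

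Over 24 alternatives, Gfra1 stayed lower and Zbtb16, Kit and Sall4 stayed higher in KI, and Gfra1 missed the adjusted p threshold in 4. Small fold changes of the others changed sign. With library totals the log2 fold change was 0.16 for Sohlh2, 0.12 for Dmrt1, 0.23 for Uchl1, 0.081 for Ret and 0.22 for Rec8, and with upper quartile scaling 0.029, 0.092 and 0.085 for Sohlh2, Uchl1 and Rec8. Sohlh1, Uchl1 and Rec8 gave −0.037, 0.0081 and 0.013 with edgeR and TMM, −0.032, 0.013 and 0.016 with edgeR and the size factors, and −0.032, 0.014 and 0.017 with DESeq2. Libraries 1 to 3 alone gave 0.056 for Sohlh2, 0.0088 for Dmrt1, 0.18 for Uchl1 and 0.11 for Ret, and libraries 4 and 5 alone −0.0068 for Stra8, −0.34 for Sohlh1, −0.031 for Id4, 0.26 for Rec8 and −0.035 for Tcf3. With each library left out, the range was −0.11 to 0.14 for Sohlh1, −0.19 to 0.037 for Sohlh2, −0.080 to 0.13 for Uchl1, −0.013 to 0.084 for Id4 and −0.10 to 0.061 for Rec8. The level per length with the longest transcript kept the place of 8 genes. The SE of the log2 fold change ran from 0.10 for Id4 to 0.27 for Stra8.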
